A study of Homo sapiens with 9 samples.

Results

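The genes described here code for the machinery that licenses replication origins and runs replication forks, in U87 cells transfected with the edited form of a microRNA, with its unedited form or with a control duplex. The group holds 50 genes of the 19775 named on the array. They were listed by name and by role, and each gene was read from the probe set with 1 gene symbol and the highest mean log2 signal over the 9 arrays, without regard to group. All 50 passed the filter on dim genes (a signal above the array's median on at least 3 arrays) and were among the 12587 genes tested; 0 of the 50 needed the miR-376a*G arrays to pass it.

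U87 is an established human glioma cell line. Cells received 50 nM of miR-376a*G (the edited form), miR-376a*A (the unedited form) or a control duplex by lipofection, and total RNA was taken after 72 h, with 3 Affymetrix arrays per group. The labels call the replicates biological but do not say which cultures or days they came from, so the p-values below measure the spread between these arrays. The design set each duplex against the control, which asks what each form changes; G against A asks how the forms differ.

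The mature microRNA is listed by RefSeq as hsa-miR-376a-5p, the current name of miR-376a*. It is shown because its seed, the stretch that pairs with target messages, is where an edited base would change target choice. The gene MIR376A1 holds it at chr14:101040788-101040809 on the plus strand (GRCh38.p14). The seed, bases 2 to 8, is in capitals.

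hsa-miR-376a-5p: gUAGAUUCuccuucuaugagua

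As background, a replication origin is marked by the origin recognition complex (ORC), which with CDC6 and CDT1 loads the MCM2-7 helicase in G1. In S phase the kinases CDC7-DBF4 and CDK switch the helicase on by adding CDC45 and the GINS complex. Polymerases then copy the strands behind it, held in place by the sliding clamp PCNA, while geminin (GMNN) blocks a new round of loading. Many of these genes are transcribed in late G1 and S phase under E2F factors, so their messages are abundant in proliferating cells and low in resting ones.

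Signals are scaled intensities in arbitrary units, with a trimmed mean close to 100 on every array, so each value is relative to the rest of its array and a change in total messenger RNA cannot be seen. Levels are not compared between genes, because probe sets differ in brightness. Differences are given on the log2(signal + 1) scale with their standard error (SE), from limma models over all 9 arrays, and the call threshold was an adjusted p of 0.05 (Benjamini-Hochberg, over the whole table of tested genes). RNA came from whole cultures, so more cells in S phase and more RNA per cell cannot be told apart.

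A pair of arrays stood apart from their labels. For the array labelled miR-376a*A replicate 1, the correlation was 0.99 with control replicates 2 and 3, and 0.93 with the rest of its own group. For the array labelled control replicate 1 it was 0.98 to 0.99 with miR-376a*A replicates 2 and 3, and 0.93 to 0.94 with the rest of its own group. Among the replication genes, the first lay nearer to control replicates 2 and 3 than to its own group in 41 of 50, against 77.0% of all genes tested. The second lay nearer to miR-376a*A replicates 2 and 3 in 36 of 50, against 75.2% of all genes tested. Results are therefore given for all 9 arrays and again without both arrays. Both were picked from these same values, so leaving them out narrows the spread within the miR-376a*A and control groups by construction. A call gained in that setting is not an independent check of the result on all 9 arrays. Of the glioma line markers, 7 of 8 were above the array median on at least 3 arrays, with summed signals of 9815 to 10455 on miR-376a*G arrays, 12280 to 15280 on miR-376a*A arrays and 11438 to 13186 on control arrays. None of the 3 leukocyte and 3 epithelial markers in the table passed this mark, and neither did GFAP, the glial filament gene. Of 3 endothelial markers, 1 passed it, PECAM1, at 86.2 ± 12.5 with miR-376a*G, 82.9 ± 37.4 with miR-376a*A and 71.0 ± 55.4 with control (SD, n = 3 each).

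The replication genes were higher with miR-376a*G. Against control, 41 of 50 were called higher and 0 lower, where 18.0% of all genes tested were called higher and 15.4% lower. The median log2 difference was 1.33, with a range of 0.27 to 2.33, against a median of 0.12 over all genes tested. The 3 miR-376a*G arrays lay above the 3 control arrays without overlap in 48 of 50 genes, against 31.1% of all genes tested. The difference exceeded 1 in 34 of 50 genes and 2 in 8, against 7.48% and 0.930% of all genes tested. Without both arrays that stood apart, 47 of 50 were called higher and 0 lower, against 31.2% and 25.0% of all genes tested, and the median was 1.25. All 41 calls of the full set were among these 47. Under the other scalings tried the count called higher ran from 36 (each array centred on its median) to 50 (scaled to the hybridisation controls), with 0 lower.

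Against miR-376a*A, 42 of 50 genes were called higher with miR-376a*G and 0 lower, where 21.8% of all genes tested were called higher and 16.4% lower. The median log2 difference was 1.37, with a range of 0.25 to 2.48, against 0.14 over all genes tested. This comparison uses the same 3 miR-376a*G arrays as the comparison with control. All 3 miR-376a*G arrays lay above all 6 other arrays in 45 of 50 genes, against 26.4% of all genes tested. Without both arrays that stood apart, 48 of 50 were called higher and 0 lower, against 34.0% and 25.7% of all genes tested, and the median was 1.47.

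Between miR-376a*A and control, 0 of 50 genes were called in limma's test on all 9 arrays, where 0 of all 12587 genes tested were called and 463 had an unadjusted p under 0.05. The median log2 difference was -0.01, with a range of -0.40 to 0.58. MCM4 was the 1 gene of the 50 with an unadjusted p under 0.05. Groups did not overlap in 3 genes, MCM4 and CHAF1B (higher with miR-376a*A) and POLD2 (lower), against 2.57% of all genes tested higher and 3.58% lower.

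**Figure D1:**
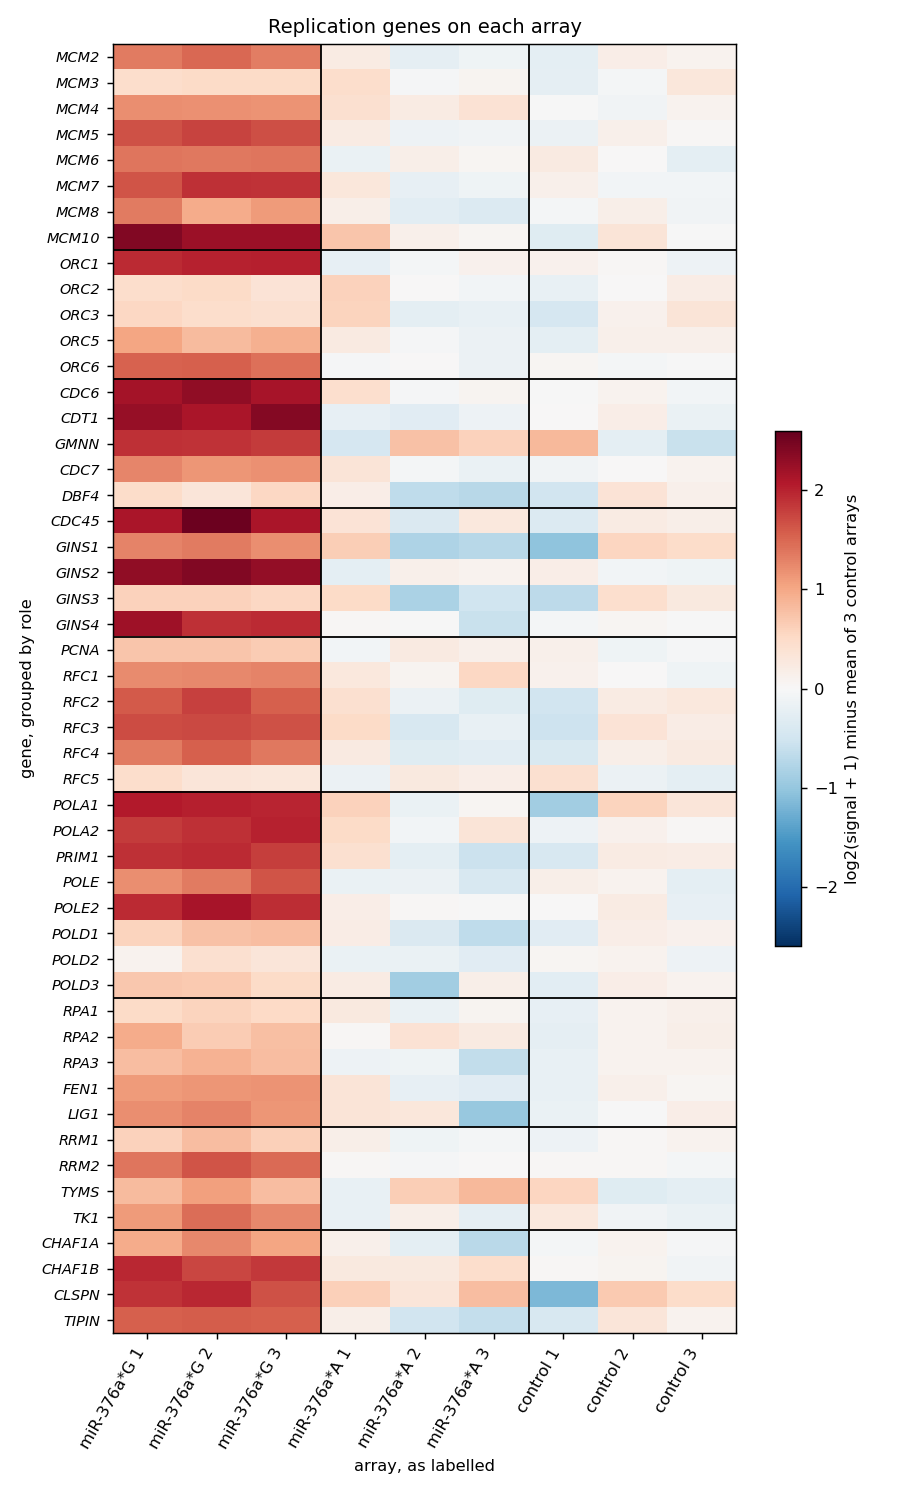
Heat map of the 50 replication genes (rows, grouped by role) on the 9 arrays (columns, miR-376a*G, miR-376a*A and control). Colour is log2(signal + 1) minus the mean of the 3 control arrays. Red fills the 3 miR-376a*G columns, whose medians over the 50 genes were 1.32, 1.36 and 1.31. The other 6 arrays have medians between -0.14 and 0.22.

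The median difference from the control mean was 1.32, 1.36 and 1.31 over the 50 genes on miR-376a*G replicates 1, 2 and 3. It was 0.22, -0.10 and -0.10 on the arrays labelled miR-376a*A and -0.14, 0.09 and 0.07 on those labelled control. The coefficient of variation of a gene's signal had a median of 6.33% over the 50 genes on miR-376a*G arrays, 19.1% on miR-376a*A arrays and 14.4% on control arrays. With the 2 outlying arrays left out it was 7.21% on miR-376a*A arrays and 5.08% on control arrays, from 2 arrays each. On miR-376a*G arrays it ran between 0.880% for MCM6 and 17.4% for CDC45.

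**Figure D2:**
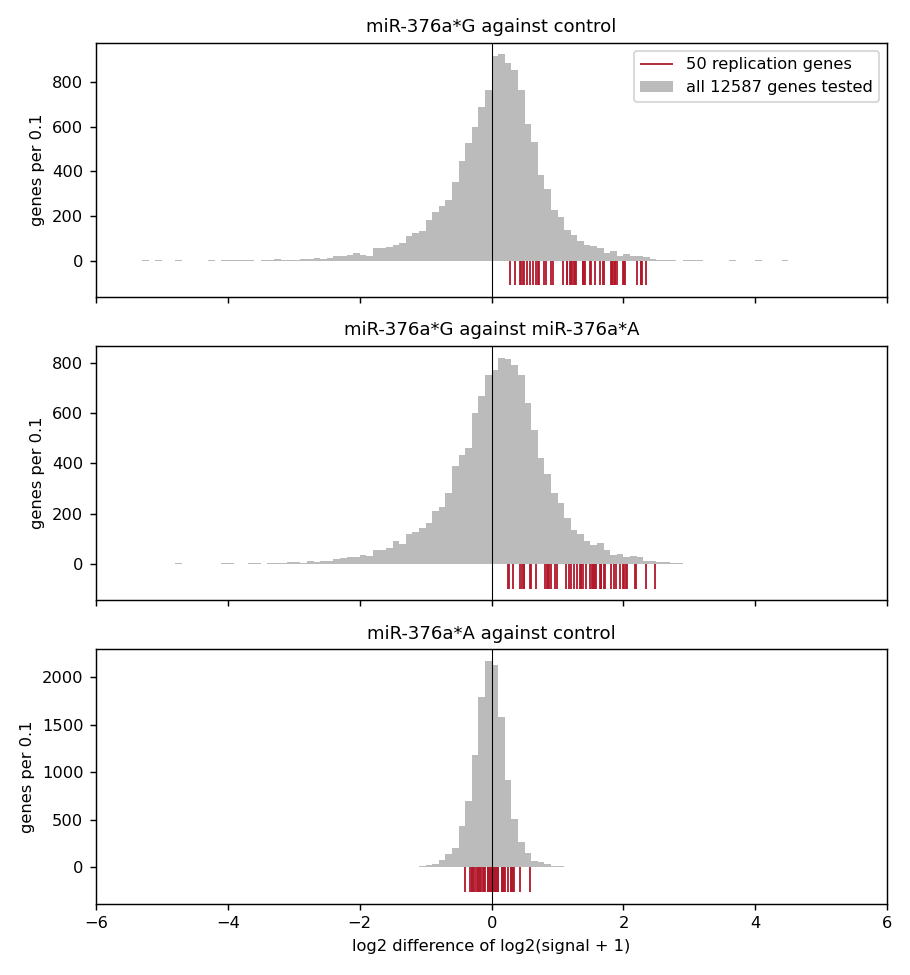
Histograms of the log2 difference of all 12587 genes tested (grey, genes per 0.1 on the log2(signal + 1) scale), with the 50 replication genes as red ticks, in 3 panels from top to bottom: miR-376a*G against control, miR-376a*G against miR-376a*A, and miR-376a*A against control. All red ticks lie right of 0 in the upper panels, between 0.27 and 2.33 and between 0.25 and 2.48 (with median centring ORC2 against miR-376a*A would lie just under 0), and on both sides of 0 in the bottom panel, between -0.40 and 0.58.

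Promoters of the replication genes were read for the short words that E2F factors (the word TTCCCGC, the word TTCGCGC, the word TTGCCGC or the word TTGGCGC) and NF-Y (CCAAT) recognise, and for the cell cycle homology word TTTGAA found in genes of G2 and M phase. The 250 bases before each start in the RefSeq promoter table were searched on both strands, and an E2F word may overlap another. A gene with several starts counted if any of them held the word. Of the 44 genes in that table, 25 (56.8%) held an E2F word, against 13.0% of the 27305 genes in the table. CCAAT was found in 28 (63.6%), against 37.0%, and TTTGAA in 1 (2.27%), against 16.1%. Either an E2F word or CCAAT was present in 35 of 44 (79.5%), against 44.6%. These background shares cover all genes in the promoter table, not only those tested on the arrays. Promoters of MCM4, MCM5, GINS4, POLD3, RPA2 and RPA3 were not used here. These matches describe the letters in the window and are not measured binding sites. Variants of the E2F words were not searched, so a promoter without these words may still hold an E2F site.

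The 150 bases before the start are shown for 8 genes with large differences between miR-376a*G and control, 5′ to 3′ on the gene's own strand (GRCh38.p14). They were picked by that difference among genes with a single start in the promoter table. The kinds shown are an E2F word, CCAAT without an E2F word, and neither. In the first 4, capitals mark E2F words on either strand: GINS2 (chr16:85688955-85689104, minus strand), CDT1 (chr16:88803639-88803788, plus), POLA1 (chrX:24693768-24693917, plus) and ORC1 (chr1:52404424-52404573, minus, a start inside the gene's annotated span).

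GINS2: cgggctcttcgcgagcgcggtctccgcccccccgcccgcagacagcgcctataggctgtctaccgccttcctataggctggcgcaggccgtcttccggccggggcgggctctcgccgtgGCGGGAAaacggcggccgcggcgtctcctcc

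CDT1: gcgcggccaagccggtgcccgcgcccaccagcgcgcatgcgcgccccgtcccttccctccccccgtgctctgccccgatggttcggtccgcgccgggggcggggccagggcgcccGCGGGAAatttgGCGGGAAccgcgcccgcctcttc

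POLA1: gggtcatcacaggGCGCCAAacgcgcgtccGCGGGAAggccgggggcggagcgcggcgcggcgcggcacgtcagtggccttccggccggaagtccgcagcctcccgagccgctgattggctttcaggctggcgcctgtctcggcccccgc

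ORC1: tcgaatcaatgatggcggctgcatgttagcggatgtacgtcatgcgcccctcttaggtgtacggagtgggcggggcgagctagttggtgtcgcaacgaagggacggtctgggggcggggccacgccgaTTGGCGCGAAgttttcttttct

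In the next 3, capitals mark CCAAT words on either strand (ATTGG on the strand shown is CCAAT on the other): MCM10 (chr10:13161408-13161557, plus), CDC6 (chr17:40287729-40287878, plus) and CLSPN (chr1:35769979-35770128, minus). These 3 held none of the E2F words searched, but close variants, such as ttggcgg in CDC6, were not counted. POLE2 (chr14:49688215-49688364, minus) is shown beside them. It held none of the words searched and had a log2 difference of 2.01.

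MCM10: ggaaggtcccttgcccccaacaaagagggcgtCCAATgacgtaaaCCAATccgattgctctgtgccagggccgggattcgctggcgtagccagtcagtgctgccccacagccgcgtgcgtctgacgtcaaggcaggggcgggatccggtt

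CDC6: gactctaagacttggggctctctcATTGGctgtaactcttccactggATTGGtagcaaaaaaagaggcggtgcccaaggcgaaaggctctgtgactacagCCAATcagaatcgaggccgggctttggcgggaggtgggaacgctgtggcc

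CLSPN: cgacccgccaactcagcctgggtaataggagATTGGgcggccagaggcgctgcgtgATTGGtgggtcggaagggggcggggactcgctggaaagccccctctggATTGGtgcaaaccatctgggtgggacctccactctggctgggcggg

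POLE2: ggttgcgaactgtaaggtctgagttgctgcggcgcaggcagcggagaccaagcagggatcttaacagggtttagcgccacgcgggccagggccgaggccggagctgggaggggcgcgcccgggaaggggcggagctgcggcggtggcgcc

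The MCM2-7 proteins form the ring-shaped helicase that unwinds DNA at the fork. Of these 6 genes, 5 were called higher with miR-376a*G than with control, with a median log2 difference of 1.39, and MCM3 was not. Beside this and the role counts below, 18.0% of all genes tested were called higher against control and 21.8% against miR-376a*A. Without both arrays that stood apart these shares were 31.2% and 34.0%, which stand beside the calls given below for that setting. MCM2 had signals of 678, 751 and 671 on miR-376a*G arrays, 308, 225 and 248 on miR-376a*A arrays and 223, 300.4 and 282 on control arrays. Its miR-376a*G arrays were the 3 highest, and the log2 difference was 1.39 ± 0.16 against control (adjusted p = 0.00024) and 1.44 ± 0.16 against miR-376a*A (adjusted p = 0.00018). MCM5 gave 650.2, 698 and 658 with miR-376a*G, 237, 186 and 193 with miR-376a*A and 185, 223 and 208 with control. MCM5 was thus 3.25-fold control and 3.26-fold miR-376a*A, with adjusted p-values of 3.1e-05 and 3e-05, and its miR-376a*A and control arrays overlapped.

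MCM6 lay at 1045, 1039 and 1057 on miR-376a*G arrays, 352, 443 and 414 on miR-376a*A arrays and 474, 404 and 335 on control arrays. On MCM6 the miR-376a*G arrays did not overlap the others, with log2 differences of 1.39 ± 0.14 against control (adjusted p = 0.00014) and 1.38 ± 0.14 against miR-376a*A (adjusted p = 0.00013). MCM7 signals were 881, 1063 and 1042 with miR-376a*G, 348, 243 and 261 with miR-376a*A and 310.4, 270.0 and 269 with control. At 1.81 ± 0.15 against control (adjusted p = 5.4e-05) and 1.82 ± 0.15 against miR-376a*A (adjusted p = 5e-05), MCM7 had the largest log2 differences among the 6 helicase genes.

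MCM4 separated all groups on the probe set used. Its signals were 614, 602 and 595 with miR-376a*G, 352, 308 and 343 with miR-376a*A and 262, 248 and 282 with control, so that the miR-376a*A arrays lay between the others without overlap. The log2 difference of miR-376a*G was 1.19 ± 0.10 against control (adjusted p = 5.5e-05) and 0.85 ± 0.10 against miR-376a*A (adjusted p = 0.00028). That of miR-376a*A against control was 0.34 ± 0.10, which was not called on all 9 arrays (adjusted p = 0.89) and was called without both outlying arrays (0.30 ± 0.10, adjusted p = 0.03). Its direction depended on the probe set: on the other MCM4 probe sets bright enough to be tested, miR-376a*A minus control was 0.21, -0.13 and -0.27. On each of these the miR-376a*G arrays lay above the control arrays without overlap, with differences of 1.05, 0.53 and 0.97.

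MCM3 was the exception. It lay at 387, 395 and 398 on miR-376a*G arrays, 385, 275 and 296 on miR-376a*A arrays and 237, 271 and 342 on control arrays. The highest miR-376a*A signal, of the array labelled replicate 1, nearly reached the lowest miR-376a*G signal. The log2 difference of MCM3 was 0.49 ± 0.17 against control (adjusted p = 0.052, 95% interval 0.11 to 0.87) and 0.32 ± 0.17 against miR-376a*A (adjusted p = 0.16, interval -0.06 to 0.70). Without both arrays that stood apart it was called in both comparisons, at 0.37 ± 0.10 (adjusted p = 0.011) and 0.46 ± 0.10 (adjusted p = 0.0025).

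**Figure D3:**
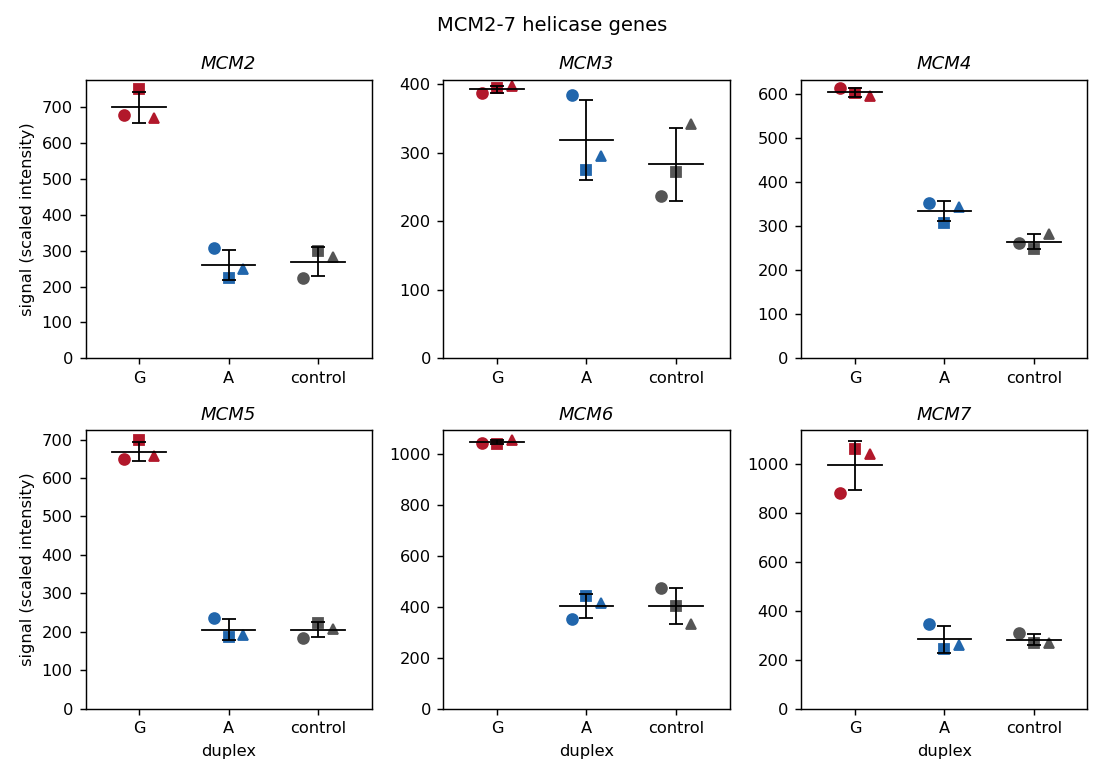
Signal (scaled intensity, axis from 0) of the 6 MCM2-7 genes in cells given miR-376a*G (G), miR-376a*A (A) or control duplex. Points are arrays (circle, square and triangle for replicates 1, 2 and 3), long bars are means and whiskers are SD (n = 3). MCM5 averages 669 ± 25.6 with miR-376a*G, 205 ± 27.5 with miR-376a*A and 205 ± 19.2 with control, whereas the MCM3 groups lie close together, at 393 ± 5.37, 319 ± 58.5 and 283 ± 53.5.

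Relatives of the helicase were also higher with miR-376a*G. MCM10, which helps activate the loaded helicase and whose promoter with a pair of CCAAT words is shown above, averaged 229 ± 18.3 with miR-376a*G, 58.3 ± 16.3 with miR-376a*A and 46.9 ± 10.8 with control (SD, n = 3 each). Its log2 difference of 2.29 ± 0.23 against control (adjusted p = 0.00012) was above those of all 6 helicase genes. MCM8, a helicase of homologous recombination, averaged 128 ± 17.8 with miR-376a*G, 52.1 ± 10.6 with miR-376a*A and 57.6 ± 5.41 with control, a log2 difference of 1.14 ± 0.18 against control (adjusted p = 0.0014).

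Within ORC, 3 of 5 genes were called higher against control and 3 of 5 against miR-376a*A, with median log2 differences of 0.92 and 0.90. ORC1, the ATPase subunit that varies with the cell cycle in human cells, had signals of 114, 119 and 121 with miR-376a*G, 24.8, 27.9 and 31.5 with miR-376a*A and 31.4, 29.4 and 26.2 with control. Those with miR-376a*G stood well above the other 6, at 1.99 ± 0.15 against control (adjusted p = 3.4e-05) and 2.04 ± 0.15 against miR-376a*A (adjusted p = 2.9e-05). ORC6, a subunit needed for helicase loading, had 637, 647 and 599 with miR-376a*G, 217, 223 and 199 with miR-376a*A and 229, 213 and 220.2 with control. Its log2 differences were 1.50 ± 0.10 against control (adjusted p = 1.8e-05) and 1.56 ± 0.10 against miR-376a*A (adjusted p = 1.5e-05), with no overlap.

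ORC5, an ATP-binding core subunit, had 378, 329 and 355 with miR-376a*G, 219.9, 183 and 167 with miR-376a*A and 155, 202 and 204 with control, and was 0.92 ± 0.15 higher on the log2 scale than control (adjusted p = 0.0019). The core subunit ORC3 was not called. Its signals were 322, 303 and 295 with miR-376a*G, 331, 184 and 193 with miR-376a*A and 163, 236 and 276 with control, where the array labelled miR-376a*A replicate 1 exceeded every miR-376a*G array. The ORC3 difference against control was 0.47 ± 0.25 (adjusted p = 0.18, interval -0.10 to 1.05), and 0.26 ± 0.10 (adjusted p = 0.038) without both arrays that stood apart. ORC2, another core subunit, averaged 196 ± 9.41 with miR-376a*G, 168 ± 45.1 with miR-376a*A and 146 ± 20.0 with control and was not called either (log2 difference 0.43 ± 0.19 against control, adjusted p = 0.11), but was called without both arrays that stood apart, at 0.33 ± 0.10 against control (adjusted p = 0.017) and 0.46 ± 0.10 against miR-376a*A (adjusted p = 0.0024).

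The factors that load and fire the helicase had a median log2 difference of 1.87 against control, with 4 of 5 called. CDT1, the loading factor whose promoter holds a pair of E2F words close to the start, had signals of 438, 402 and 483 with miR-376a*G, 78.1, 73.8 and 82.5 with miR-376a*A and 91.5, 103 and 80.2 with control. CDT1 was 4.79-fold control and 5.58-fold miR-376a*A with no overlap, at log2 differences of 2.26 ± 0.13 (adjusted p = 1.2e-05) and 2.48 ± 0.13 (adjusted p = 8.4e-06), the second being the largest of the 50 genes in that comparison. CDC6, the ATPase that works with CDT1, had 499, 551 and 490.3 with miR-376a*G, 149.7, 108 and 116 with miR-376a*A and 109.9, 118 and 105 with control. All 3 miR-376a*G arrays were far above the rest, at 2.20 ± 0.14 against control (adjusted p = 1.7e-05) and 2.05 ± 0.14 against miR-376a*A (adjusted p = 2.3e-05).

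The kinase CDC7 and its activating subunit DBF4 were not both called against control. CDC7 had 222, 204 and 208 with miR-376a*G, 114, 87.6 and 80.7 with miR-376a*A and 85.1, 91.8 and 96.3 with control, a log2 difference of 1.21 ± 0.15 against control (adjusted p = 0.00041). DBF4 had 311, 278 and 323 with miR-376a*G, 251, 141 and 135 with miR-376a*A and 157, 286 and 245 with control. One control array of DBF4, replicate 2, lay above the lowest miR-376a*G array, and the difference of 0.45 ± 0.28 against control was not called (adjusted p = 0.25, interval -0.18 to 1.08). Against miR-376a*A the DBF4 difference was 0.84 ± 0.28 and was called (adjusted p = 0.04), a call lost without any 1 miR-376a*G array, miR-376a*A replicate 2 or 3 or control replicate 3 (adjusted p = 0.054 to 0.14). The difference between the CDC7 and DBF4 responses was not tested.

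GMNN, which codes for geminin, the inhibitor of CDT1, is given in full because its arrays split within groups, a choice made after its values were seen. Its signals were 366, 364 and 348 with miR-376a*G, 71.6, 166 and 149 with miR-376a*A and 175, 81.4 and 64.9 with control. The miR-376a*G arrays were the 3 highest, while each array labelled replicate 1 in the miR-376a*A and control groups lay on the other label's side. The log2 difference against control was 1.87 ± 0.39 (adjusted p = 0.0063) and against miR-376a*A 1.56 ± 0.39 (adjusted p = 0.013). Without both arrays the differences were 2.29 ± 0.11 and 1.19 ± 0.11, with smaller standard errors.

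CDC45 and the GINS subunits, which join MCM2-7 to make the active helicase, had a role median of 2.01 against control and 2.18 against miR-376a*A, with 3 of 5 and 4 of 5 genes called. GINS2 had signals of 546, 587 and 534 with miR-376a*G, 91.2, 121 and 117 with miR-376a*A and 124, 104 and 101 with control. It was 5.05-fold control, the largest log2 difference of the 50 genes in that comparison (2.33 ± 0.14, adjusted p = 1.3e-05), and 2.34 ± 0.14 above miR-376a*A (adjusted p = 1.3e-05). A dimmer GINS2 probe set moved less, by 0.76 on the log2 scale against control, with no overlap.

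GINS4 had 182, 147 and 151 with miR-376a*G, 39.6, 38.5 and 25.5 with miR-376a*A and 37.4, 40.2 and 38.7 with control, which separated miR-376a*G from the rest (2.01 ± 0.19 against control, adjusted p = 9.9e-05; 2.20 ± 0.19 against miR-376a*A, adjusted p = 5.9e-05). CDC45 had 212, 282 and 211 with miR-376a*G, 61.1, 36.5 and 58.0 with miR-376a*A and 36.9, 55.3 and 53.2 with control. Its difference was 2.26 ± 0.24 against control (adjusted p = 0.00019) and 2.18 ± 0.24 against miR-376a*A (adjusted p = 0.00021).

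The other GINS subunits were uneven among the arrays labelled miR-376a*A and control. GINS3 had 127, 128 and 122 with miR-376a*G, 118, 46.6 and 58.0 with miR-376a*A and 51.4, 113 and 99.9 with control. Its miR-376a*G arrays were still the highest, but the array labelled miR-376a*A replicate 1 was close to them and the difference of 0.58 ± 0.37 against control was not called (adjusted p = 0.26, interval -0.25 to 1.42). With the 2 outlying arrays left out it was 0.24 ± 0.13 (adjusted p = 0.14). Against miR-376a*A the GINS3 difference was 0.87 ± 0.37 and not called on all 9 arrays (adjusted p = 0.094), and 1.26 ± 0.13 without both (adjusted p = 1.1e-05). GINS1, given in full after its values were seen, had 174, 181 and 165 with miR-376a*G, 111, 39.9 and 42.2 with miR-376a*A and 33.7, 105 and 98.8 with control. Its difference of 1.28 ± 0.48 against control was not called on all 9 arrays (adjusted p = 0.071) and was called without both outlying arrays (0.76 ± 0.11, adjusted p = 0.00019). Against miR-376a*A it was 1.58 ± 0.48 (adjusted p = 0.03), and 2.05 ± 0.11 without both arrays. That call was lost without any 1 miR-376a*G array or without miR-376a*A replicate 2 or 3 (adjusted p = 0.073 to 0.10).

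**Figure D4:**
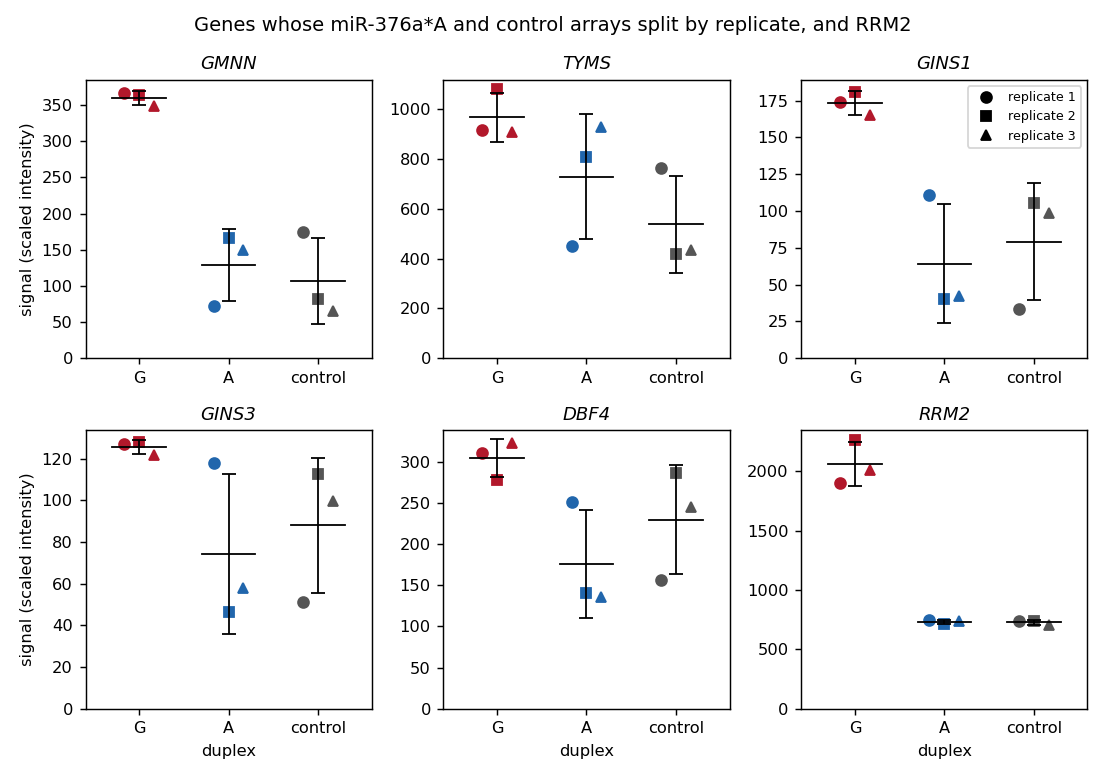
Signal (scaled intensity, axis from 0) of GMNN, TYMS, GINS1, GINS3 and DBF4, and of RRM2 for comparison, in cells given miR-376a*G (G), miR-376a*A (A) or control duplex. Points are arrays (shape marks the replicate), long bars are means and whiskers are SD (n = 3). In the first 5 genes the replicate 1 circles of A and control lie on the side of the other label's squares and triangles, whereas RRM2 has all 6 of these arrays between 703 and 744.

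The clamp PCNA and its loader, replication factor C, had 5 of 6 genes called in each comparison, with a median log2 difference of 1.34 against control and 1.25 against miR-376a*A. RFC1, the large loader subunit, had signals of 359, 366 and 375 with miR-376a*G, 185, 161 and 224 with miR-376a*A and 165, 154 and 141 with control. Its miR-376a*G arrays were the 3 highest, at 1.25 ± 0.14 against control (adjusted p = 0.00022) and 0.96 ± 0.14 against miR-376a*A (adjusted p = 0.00083). The other bright RFC1 probe set moved less, by 0.64 and 0.42. With it the limma call against miR-376a*A was lost (adjusted p = 0.053). The small subunit RFC4 had 1003, 1157 and 1014 with miR-376a*G, 461, 314 and 326 with miR-376a*A and 299.9, 435 and 464 with control. RFC4 differences were 1.42 ± 0.20 against control (adjusted p = 0.00073) and 1.54 ± 0.20 against miR-376a*A (adjusted p = 0.00042).

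RFC2, another small subunit, had 403, 459 and 393 with miR-376a*G, 177, 119 and 107 with miR-376a*A and 94.3, 153 and 162 with control, and its miR-376a*G arrays did not overlap the rest (1.64 ± 0.25 against control, adjusted p = 0.0011). RFC3 averaged 741 ± 20.3 with miR-376a*G, 232 ± 81.2 with miR-376a*A and 238 ± 71.9 with control (log2 difference 1.69 ± 0.28, adjusted p = 0.0017). PCNA itself changed less than the loader subunits called, averaging 749.7 ± 18.6 with miR-376a*G, 495 ± 52.4 with miR-376a*A and 461 ± 37.5 with control, or 1.63-fold control (log2 difference 0.70 ± 0.11, adjusted p = 0.0013). The difference between PCNA and the loader subunits was not tested.

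RFC5 depended on the probe set. The probe set chosen by the rule had signals of 468, 426 and 421 with miR-376a*G, 309, 410.4 and 384 with miR-376a*A and 456, 308 and 285 with control. Control replicate 1 lay inside the miR-376a*G range, and the log2 difference of 0.35 ± 0.19 was not called (adjusted p = 0.18, interval -0.07 to 0.78). It was 0.56 ± 0.09 and called when the 2 outlying arrays were left out (adjusted p = 0.00025). The other RFC5 probe sets averaged 447 and 305 with miR-376a*G, 145 and 107 with miR-376a*A, and 129 and 86.8 with control. Their differences against control were 1.79 and 1.81, with no overlap. Over the 27 genes with more than 1 probe set, 37 other probe sets were bright enough to be tested, and 6 of them (of MCM6, MCM10, GINS4, POLA2 and CLSPN) needed the miR-376a*G arrays to pass. Of the remaining 31, 29 were higher on average with miR-376a*G than with control, where 58.4% of all genes tested were, and 28 without overlap, against 31.1%. The exceptions were 1 probe set each of RFC3 (-1.20) and RPA1 (-0.20), both with overlapping arrays.

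The polymerases and primase had 6 of 8 genes called against control and 7 of 8 against miR-376a*A, with median log2 differences of 1.64 and 1.65. POLE2, the second subunit of the leading-strand polymerase epsilon, had signals of 228, 263 and 225 with miR-376a*G, 66.1, 59.8 and 58.0 with miR-376a*A and 58.7, 68.1 and 50.2 with control. Its miR-376a*G arrays were well clear of the others, at 2.01 ± 0.15 against control (adjusted p = 3e-05) and 1.94 ± 0.15 against miR-376a*A (adjusted p = 3.2e-05). POLE, the catalytic subunit of the same enzyme, had 88.0, 96.9 and 119 with miR-376a*G, 33.3, 33.7 and 27.7 with miR-376a*A and 41.7, 40.0 and 31.4 with control. POLE was 1.40 ± 0.18 above control (adjusted p = 0.00052) and 1.65 ± 0.18 above miR-376a*A (adjusted p = 0.0002).

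Polymerase alpha and primase, which make the primers that start each fragment, had all 3 of the subunits in the group, POLA1, POLA2 and PRIM1, called higher against both other groups. The remaining primase subunit, PRIM2, from the separate list of replication genes below, was not called (0.41 ± 0.31 against control, adjusted p = 0.33; 0.81 ± 0.31 against miR-376a*A, adjusted p = 0.064). POLA2, the accessory subunit of polymerase alpha, had 258, 272 and 294 with miR-376a*G, 103, 68.9 and 91.5 with miR-376a*A and 65.9, 78.0 and 74.4 with control, with no overlap and differences of 1.91 ± 0.16 against control (adjusted p = 6.1e-05) and 1.66 ± 0.16 against miR-376a*A (adjusted p = 0.00012). POLA1, the catalytic subunit, averaged 72.8 ± 1.78 with miR-376a*G, 19.9 ± 5.99 with miR-376a*A and 18.9 ± 9.05 with control (log2 difference 2.02 ± 0.37, adjusted p = 0.0032). POLA1 was dim, above the array median on 6 of the 9 arrays. The primase subunit PRIM1 averaged 391 ± 19.2 with miR-376a*G, 100.1 ± 36.3 with miR-376a*A and 108 ± 24.6 with control (log2 difference 1.88 ± 0.26, adjusted p = 0.0007).

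The lagging-strand polymerase delta showed smaller differences. POLD3, an accessory subunit, had 95.8, 94.9 and 83.8 with miR-376a*G, 68.7, 30.8 and 65.7 with miR-376a*A and 48.4, 66.4 and 63.0 with control. The miR-376a*G arrays were highest, but the differences of 0.63 ± 0.29 against control (adjusted p = 0.13) and 0.80 ± 0.29 against miR-376a*A (adjusted p = 0.055) were not called. POLD2 averaged 417 ± 44.8 with miR-376a*G, 297 ± 14.9 with miR-376a*A and 344 ± 28.7 with control, which was not called against control (0.27 ± 0.12, adjusted p = 0.11) but was called with both outlying arrays left out (0.30 ± 0.11, adjusted p = 0.042) and, on all 9, against miR-376a*A (0.49 ± 0.12, adjusted p = 0.012; 0.052 without miR-376a*G replicate 2). POLD1, the catalytic subunit, averaged 125 ± 10.8 with miR-376a*G, 64.4 ± 20.4 with miR-376a*A and 76.5 ± 12.9 with control (log2 difference 0.72 ± 0.23, adjusted p = 0.039), a call lost when any 1 array other than miR-376a*A replicates 1 and 3 was left out (adjusted p = 0.052 to 0.12).

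The single-strand binding protein RPA and the enzymes that join lagging-strand fragments had all 5 genes called in each comparison, with median log2 differences of 0.83 against control and 1.13 against miR-376a*A. FEN1, the flap nuclease, had signals of 675, 692 and 705 with miR-376a*G, 398, 269 and 254 with miR-376a*A and 275, 344 and 326 with control. Its miR-376a*G arrays did not overlap the others, at 1.14 ± 0.17 against control (adjusted p = 0.0012) and 1.20 ± 0.17 against miR-376a*A (adjusted p = 0.00082). RPA2, the middle RPA subunit, had 1625, 1312 and 1441 with miR-376a*G, 852, 1079.9 and 978 with miR-376a*A and 705, 894 and 923 with control, or 0.80 ± 0.14 above control (adjusted p = 0.0022).

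RPA3, the small subunit, had 1527, 1640.4 and 1519 with miR-376a*G, 801, 808 and 562 with miR-376a*A and 769.7, 935 and 936 with control, and lay 0.83 ± 0.15 above control (adjusted p = 0.0027) and 1.13 ± 0.15 above miR-376a*A (adjusted p = 0.0005). LIG1, the ligase that seals the fragments, had 87.1, 92.4 and 83.0 with miR-376a*G, 47.2, 45.9 and 18.1 with miR-376a*A and 32.8, 36.9 and 41.9 with control. The lowest LIG1 signal was miR-376a*A replicate 3, and the difference of 1.22 ± 0.33 against control had a wide standard error (adjusted p = 0.019). That call was lost without any 1 miR-376a*G array or without control replicate 2 (adjusted p = 0.052 to 0.063). RPA1, the large subunit, averaged 997 ± 32.7 with miR-376a*G, 716 ± 104 with miR-376a*A and 691 ± 85.0 with control (log2 difference 0.54 ± 0.13, adjusted p = 0.013). Its call against miR-376a*A was lost without miR-376a*G replicate 2 or 3 or miR-376a*A replicate 2 (adjusted p = 0.051 to 0.060).

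Genes that supply deoxynucleotides were all called higher than control, 4 of 4, with a median log2 difference of 1.08, and 3 of 4 were called against miR-376a*A. RRM2, the S phase subunit of ribonucleotide reductase, had signals of 1902, 2265 and 2009 with miR-376a*G, 744, 712 and 735 with miR-376a*A and 740.4, 742 and 703 with control. The 6 arrays without miR-376a*G lay within a narrow range, and the log2 differences were 1.49 ± 0.08 against control (adjusted p = 1e-05) and 1.49 ± 0.08 against miR-376a*A (adjusted p = 8.7e-06), with the smallest standard error of the 50 genes. RRM1, the large subunit, had 1194, 1366 and 1204 with miR-376a*G, 872, 722 and 759.6 with miR-376a*A and 714, 805 and 841 with control, a smaller difference of 0.67 ± 0.11 (adjusted p = 0.0015) with no overlap.

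TK1, the thymidine kinase of S phase, had 569, 727 and 634 with miR-376a*G, 231, 294 and 225 with miR-376a*A and 319, 249.7 and 234 with control, or 1.27 ± 0.16 above control (adjusted p = 0.00052) and 1.36 ± 0.16 above miR-376a*A (adjusted p = 0.00032). TYMS, which codes for thymidylate synthase, had 915, 1082 and 908 with miR-376a*G, 451, 809 and 930.4 with miR-376a*A and 764, 417 and 434 with control. Its miR-376a*A replicate 3 overlapped the miR-376a*G arrays. TYMS was called against control (0.90 ± 0.30, adjusted p = 0.046) and not against miR-376a*A (0.47 ± 0.30, adjusted p = 0.24, interval -0.21 to 1.14). Without both arrays that stood apart TYMS was 1.18 ± 0.10 above control (adjusted p = 3.1e-06) and 0.15 ± 0.10 above miR-376a*A (adjusted p = 0.2). With 1 array left out, the TYMS call against control was lost without any 1 miR-376a*G array, miR-376a*A replicate 2 or control replicate 2 or 3 (adjusted p = 0.058 to 0.14).

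Chromatin assembly and fork protection genes were called in 4 of 4 cases against control, with a median log2 difference of 1.70, and in 3 of 4 against miR-376a*A. CHAF1B, a subunit of the histone chaperone CAF-1, had signals of 106, 90.3 and 97.1 with miR-376a*G, 31.8, 31.9 and 36.8 with miR-376a*A and 27.0, 28.0 and 24.8 with control. The miR-376a*G arrays were highest and the miR-376a*A arrays all lay above the control arrays, with differences of 1.84 ± 0.15 for miR-376a*G against control (adjusted p = 4.3e-05) and 0.32 ± 0.15 for miR-376a*A against control (adjusted p = 0.89). CHAF1A, the large subunit, had 123, 148 and 128 with miR-376a*G, 68.2, 51.9 and 38.1 with miR-376a*A and 59.9, 66.3 and 60.8 with control, and lay 1.08 ± 0.20 above control (adjusted p = 0.0036).

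TIPIN, which with TIMELESS steadies the fork, had 297, 303 and 299 with miR-376a*G, 111, 70.4 and 65.2 with miR-376a*A and 75.1, 125 and 108 with control. TIPIN on miR-376a*G arrays lay far above both other groups, at 1.57 ± 0.24 against control (adjusted p = 0.0012) and 1.89 ± 0.24 against miR-376a*A (adjusted p = 0.00038). CLSPN, the checkpoint mediator claspin, had 45.6, 48.2 and 38.7 with miR-376a*G, 18.5, 14.7 and 21.1 with miR-376a*A and 4.64, 19.4 and 16.6 with control. The array labelled control replicate 1 was far below the other control arrays, and the difference was 1.83 ± 0.44 against control (adjusted p = 0.012), or 1.24 ± 0.24 without both arrays that stood apart. Against miR-376a*A it was 1.25 ± 0.44 and not called (adjusted p = 0.052), but was called without control replicate 1 (adjusted p = 0.0018) or 2 (adjusted p = 0.043), which enter that test through the shared variance.

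**Figure D5:**
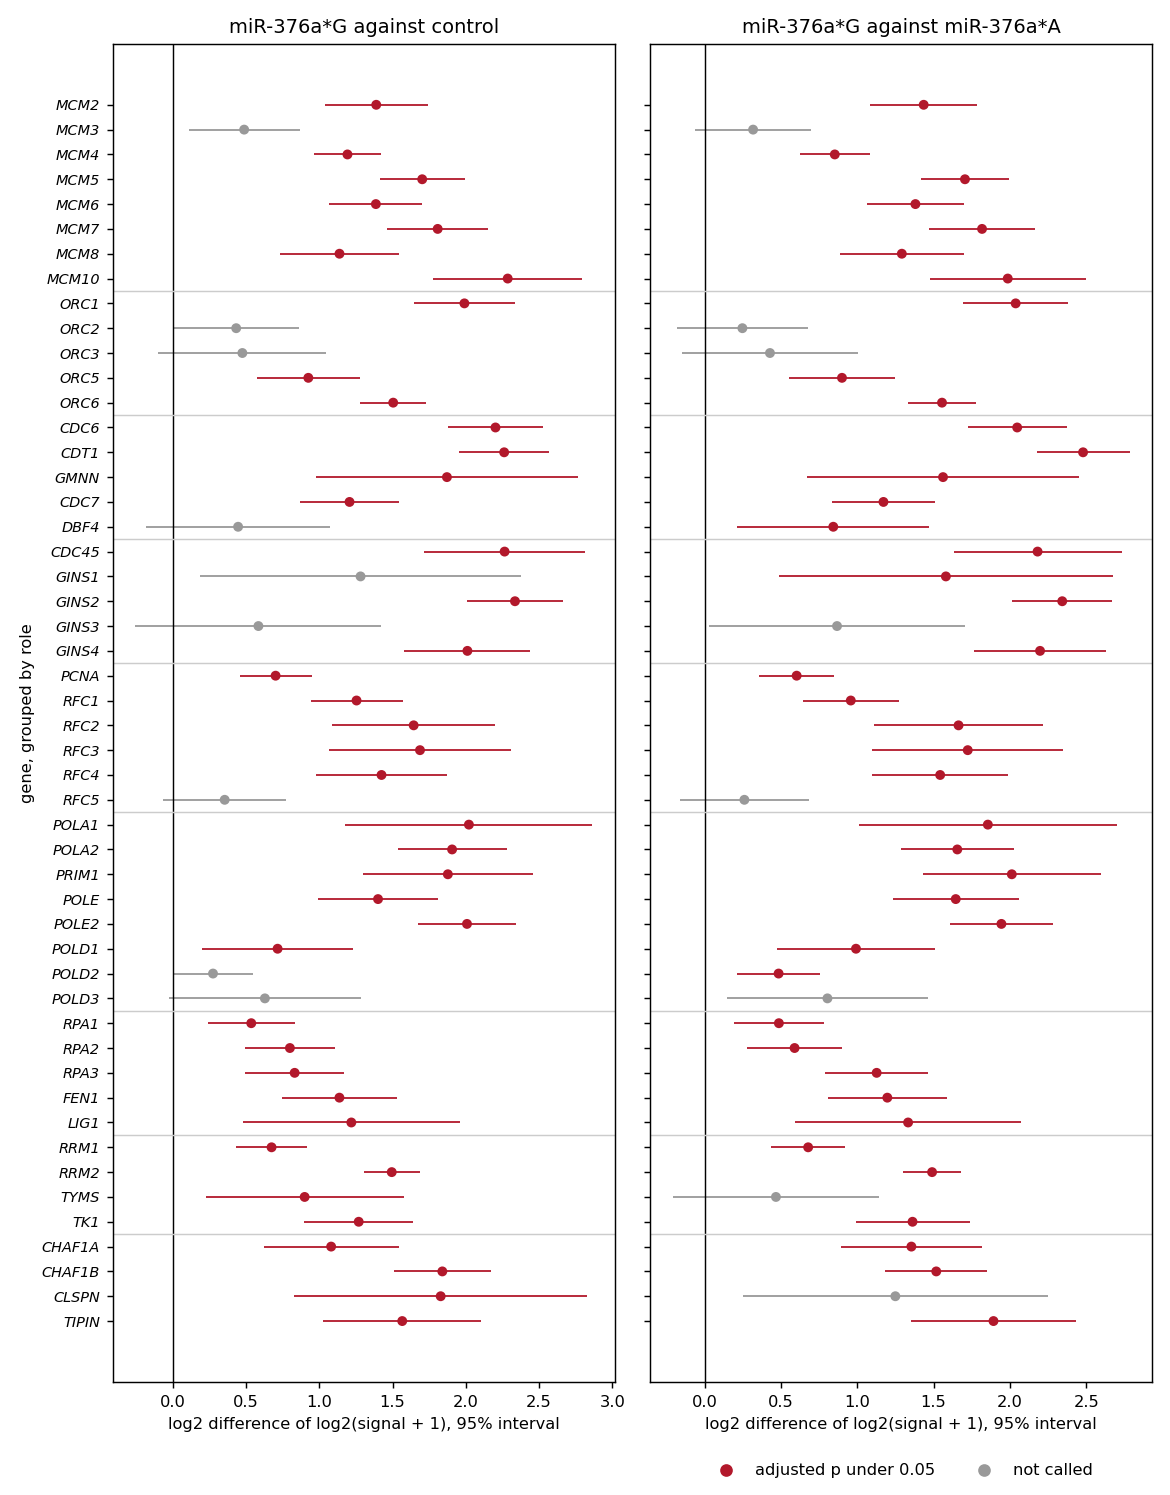
Log2 difference (points) with its 95% interval (lines) for the 50 replication genes, grouped by role, for miR-376a*G against control (left) and miR-376a*G against miR-376a*A (right). Red marks an adjusted p under 0.05 in limma over all genes tested, 41 genes on the left and 42 on the right. All points lie above 0 at the deposited scaling (with median centring ORC2 against miR-376a*A was just under 0), and GINS2 (2.33) and CDT1 (2.48) lie farthest right in their panels.

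Without both arrays that stood apart, miR-376a*A and control also differed. In that setting 19.0% of all genes tested were called higher with miR-376a*A and 22.9% lower. Among the replication genes 5 were called higher (MCM4, GMNN, PCNA, RFC5 and TYMS) and 14 lower (MCM2, ORC3, DBF4, GINS1, GINS3, RFC2, RFC3, RFC4, PRIM1, POLD1, RPA3, FEN1, CHAF1A and TIPIN). The first share of the 50 was below its background and the second slightly above it. The median was -0.17 over the 50 genes. The highest differences were 1.10 ± 0.12 for GMNN (adjusted p = 5.1e-05) and 1.03 ± 0.11 for TYMS (adjusted p = 3.3e-05). The lowest were -1.29 ± 0.12 for GINS1 (adjusted p = 1.6e-05) and -1.02 ± 0.14 for GINS3 (adjusted p = 0.00024). Differences above 0 numbered 23 of 50 on all 9 arrays and 16 of 50 without both. ORC3 was among the genes that changed sign, with 0.05 ± 0.25 on all 9 arrays and -0.44 ± 0.10 without both (adjusted p = 0.0063). These values rest on 2 arrays in each of these groups, and which label the arrays left out should carry was not tested. The arrays were left out because their own values lay nearer to the other label. That choice by itself narrows the spread within these groups and widens the gap between them. The calls in this setting are therefore not an independent test of a difference between miR-376a*A and control.

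Other genes of DNA replication, from a separate list, were more often called higher than lower. Of 39 listed, 36 were in the table and 34 were tested, 2 of them (TICRR and CHTF18) only because of the miR-376a*G arrays. Of the other 32, 20 were called higher and 4 lower against control, where 18.0% of all genes tested were called higher and 15.4% lower. Against miR-376a*A, 22 were higher and 5 lower, where 21.8% of all genes tested were higher and 16.4% lower. The counts called lower are near or below these backgrounds. The 4 with the smallest p against control were ATAD5, which unloads PCNA (1.96 ± 0.16, adjusted p = 4.9e-05), FBXO5, an inhibitor of the anaphase-promoting complex (1.45 ± 0.13, adjusted p = 7.4e-05), RNASEH2A, which removes ribonucleotides from DNA (1.53 ± 0.16, adjusted p = 0.00015), and CDC25A, the phosphatase that activates CDK2 (2.27 ± 0.25, adjusted p = 0.00022).

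Called lower against control were RRM2B, POLD4, ASF1A and CHTF8. RRM2B, the p53-induced subunit of ribonucleotide reductase, had signals of 88.7, 79.1 and 87.4 with miR-376a*G, 217, 495 and 493 with miR-376a*A and 510.0, 223 and 207 with control. It was lowest on the miR-376a*G arrays with no overlap and fell by 1.74 on the log2 scale against control (adjusted p = 0.0091), opposite to RRM1 and RRM2. Its miR-376a*A and control arrays labelled replicate 1 lay on the other label's side. Without both arrays the RRM2B difference against control was -1.33. POLD4, the small polymerase delta subunit that is degraded after DNA damage, had 168, 184 and 191 with miR-376a*G, 326, 414 and 295 with miR-376a*A and 400.5, 471 and 422 with control, a difference of -1.25 ± 0.14 (adjusted p = 0.00029) opposite in sign to POLD1. The histone chaperone ASF1A differed by -0.85 ± 0.21 (adjusted p = 0.012) and CHTF8, a subunit of an alternative clamp loader, by -0.39 ± 0.13 (adjusted p = 0.045). RBBP4, a CAF-1 subunit with many other complexes, was called lower against miR-376a*A (-0.25 ± 0.08, adjusted p = 0.038) and not against control (-0.09 ± 0.08, adjusted p = 0.4).

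Genes of mitosis moved with the replication genes. All 14 on a separate list of mitotic genes, among them kinases, cyclins and motors, were called higher with miR-376a*G in each comparison. Their median log2 differences were 1.83 against control and 1.91 against miR-376a*A. Of all genes tested, 18.0% were called higher against control and 21.8% against miR-376a*A. Their summed signal was 8912 to 9754 on miR-376a*G arrays, 2112 to 3101 on miR-376a*A arrays and 2038 to 2926 on control arrays. The share of dividing cells was not measured, and its part in the values above was not tested. Of 3 neuronal markers, 2 were detected. Signals summed over all 3 were 257 to 275 on miR-376a*G arrays, 410 to 1984 on miR-376a*A arrays and 344 to 1679 on control arrays. SNAP25 had 197, 192 and 179 with miR-376a*G, 254, 1656 and 1825 with miR-376a*A and 1498, 240 and 214 with control. Its miR-376a*A and control arrays labelled replicate 1 thus lay on the other label's side. The part of the neuronal markers in the values above was not tested either.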

How the data were processed

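Total RNA of U87 cells was labelled with biotin-ULS after poly-A control RNA had been spiked in, per the labels' protocols. The authors deposited 1 linear intensity per probe set and array, and the submitters' processing notes name GCOS 1.4.0.036. How GCOS summarised the probes is not stated in the sources used here. The trimmed mean (2% at each end) was close to 100 on all 9 arrays, so the values were already scaled. Median signal was 18.0 to 24.6. The number of arrays limits the precision.

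Of 54675 probe sets, 41091 had a single gene in the platform's table and 1801 had several. Each gene took its brightest probe set by mean log2(intensity + 1) over all arrays, and 12587 genes above their array's median on at least 3 arrays were tested. Adding 1 to the signal shrinks the fold changes of dim genes, while a single array near the floor can widen them, as for CLSPN. limma 3.58.1 in R 4.3.3 (lmFit, contrasts, eBayes with trend) was fitted to all 9 arrays with 6 residual degrees of freedom, two-sided, with Benjamini-Hochberg adjustment over all genes tested. Intervals are 95%. With 3 arrays in each group, the smallest p of an exact permutation test is 0.1, so none was used. The steps were run on simulated data with independent noise, set to the spread of the miR-376a*G arrays. That setting holds no arrays that stand apart from their labels, so it does not cover the wider spread of the other groups. Promoter and microRNA sequences and all 50 gene names were matched to RefSeq tables of GRCh38.p14.

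Values on every array are given for MCM2-7 and, in each role, for the 3 genes with the smallest p and the 1 with the largest p against control. In the separate list of replication genes, the 4 with the smallest p and those called opposite to most members are named. The members and lists were chosen with earlier results of these data known. Alternatives were the pseudocount, filter, scaling, choice of probe set, intensity trend, array weights, replicate block and arrays left out.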

Additional observations from a re-analysis of the deposited data

How the results depend on the processing

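The count of replication genes called higher with miR-376a*G kept its direction, with 0 called lower, under every alternative run. Against control it was 41 on all arrays, 38 to 44 with 1 array left out, 39 with the replicate block, 36 with median centring and 50 after scaling to the hybridisation controls. Against miR-376a*A it was 42, and 38 to 47, 39, 35 and 50 under the same alternatives. For miR-376a*A against control it was 0 in both directions with 1 array left out and with the replicate block, but 6 higher and 13 lower with array weights, and 5 higher and 14 lower without both arrays that stood apart; the weights of those arrays were 0.15 and 0.17, against 0.67 to 2.93 for the others. ORC3 was among the genes that changed sign in that comparison, at -0.44 without both arrays against 0.05 on all 9.

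The scaling moved all genes together. The median of all genes against control was 0.12 as deposited, -0.12 with median centring, 0.51 when scaled to the hybridisation controls and 0.40 when scaled to the poly-A spikes. Over all genes tested, calls numbered 4205 against control and 4804 against miR-376a*A as deposited, 6538 and 8882 when scaled to the hybridisation controls, 7866 and 7866 with array weights, and 7067 and 7508 without both arrays; between miR-376a*A and control they numbered 0, against 5513 with array weights and 5269 without both arrays. Of the calls against control, 53.9% were higher as deposited, 29.1% with median centring, 85.5% when scaled to the hybridisation controls and 80.0% when scaled to the poly-A spikes. Of the calls against miR-376a*A, 57.0% were higher as deposited, 29.9% with median centring, 92.4% when scaled to the hybridisation controls and 73.0% when scaled to the poly-A spikes. Of the 41 calls against control, POLD1, TYMS and LIG1 were those most often lost; POLD1 and TYMS were lost with the replicate block (adjusted p = 0.099 and 0.11), RPA1 and RRM1 with median centring, and RFC3 and RPA1 with the mean of probe sets. GINS2 missed the threshold with its second probe set (adjusted p = 0.060). Calls against miR-376a*A were also lost. With median centring these were DBF4, GINS1, POLD1, POLD2, RPA1, RPA2 and RRM1. With the second probe set they were GINS2, RFC1 and POLA2 (adjusted p = 0.083, 0.053 and 0.089). RFC1 and RPA1 were lost with the mean of probe sets (adjusted p = 0.067 and 0.074), and DBF4, GINS1 and RPA1 with the replicate block. The cause of these losses was not tested. Deviations of same-numbered arrays from their group means correlated at -0.17 to 0.05 between miR-376a*G and the other groups. Between miR-376a*A and control they correlated at -0.88 to -0.56. Both arrays that stood apart enter these group means, so the values cannot show whether replicate numbers pair the arrays. The replicate block is an alternative only. Low signal limits CLSPN and POLA1, each above the array median on 6 of the 9 arrays. On control replicate 1 they lay at 4.64 and 8.75, below that array's median. Both were also below it on miR-376a*A replicate 2 (14.7 and 15.2). CLSPN was below it on control replicate 3 (16.6) and POLA1 on miR-376a*A replicate 3 (17.9).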
